A study of Rattus norvegicus with 18 samples.

Results

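The RNA of the proximal sciatic nerve stump was compared between 0.5 h and 0 h after transection in adult male Sprague-Dawley rats. The members are the 3 arrays whose titles give 0.5 h and the 3 whose titles give 0 h, 6 of the 18 arrays of the series, with all probes that are not controls. Under anaesthesia with trichloroacetaldehyde monohydrate, magnesium sulfate and sodium pentobarbital, the left sciatic nerve was cut in the thigh with loss of a segment, and RNA was taken from a short piece of the stump that stays joined to the spinal cord. Rats of both groups thus had the anaesthesia, the incision and the cut, and no group had surgery without transection, so that injury to the nerve, the incision and the anaesthesia cannot be told apart. Whether rats were pooled for an array is stated neither in the labels nor in the methods. The P-values measure only the spread between arrays of a time-point, estimated over all 18 arrays of the series, and this spread may be technical.

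Cells answer an injury within minutes by transcribing immediate early genes, which need no new protein because their activators are already in the cell and wait only to be phosphorylated. Many of them encode transcription factors, such as the AP-1 partners Fos and Jun and the zinc finger protein Egr1, and others encode secreted signals or the phosphatases and mRNA-binding proteins that shut the response off again. In a cut nerve, Schwann cells, fibroblasts, endothelial cells and resident macrophages are all exposed to the injury, and chemokines made there call in neutrophils and later monocytes from the blood. The neuronal cell bodies lie outside the segment, so that its RNA comes mostly from these local cells, with a small share from axons.

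All 6 arrays were scanned on 1 day, but no slide held arrays of both groups: the 3 arrays of 0 h shared a slide, and those of 0.5 h lay on 2 others, replicates 1 and 2 on one and replicate 3 on the other. Levels are log2 processed signals (the brightness of a spot after the scanner software subtracted its background) relative to the 75th percentile of the same array, so that a value of 0 lies at that percentile. The median local background was 50 to 51.5 on the arrays of 0 h and 70 to 88 on those of 0.5 h, and the negative control spots had a median signal of 73.5 to 76 against 93.8 to 111. A total of 74.3% to 76.9% of spots were well above background at 0 h and 65.9% to 73.1% at 0.5 h. Probes entered the test when every array of at least one group measured them well above background, which held for 29663 probes of 24983 genes, 12612 of them with a symbol listed in RefSeq. For 3569 of these probes this was so at 0 h alone and for 106 at 0.5 h alone. The nerve was recognisable in both groups: all 18 Schwann cell and myelin markers were tested, and their mean level was 2.70 to 2.91 on the arrays of 0 h and 2.83 to 3.04 on those of 0.5 h.

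The 0.5 h nerve differed from the 0 h nerve by large rises in a set of early genes and by many other calls, whose balance of higher and lower depended on the scaling. A call needed at least 1 probe of the gene with limma P-values under 0.01 before and under 0.05 after Benjamini-Hochberg adjustment over all tested probes. By this rule 1750 genes were called, 7% of the genes tested, with 1203 higher (4.82%) and 549 lower (2.2%), among them 2 with probes on both sides. At least 2-fold changes were called for 580 genes that were higher and 22 that were lower. Leaving out single arrays gave 590 to 1204 called genes, and a fit of the 6 arrays alone gave 1123, of which 120 were lower. For genes with a listed symbol the count was 838 (6.64%), with 476 higher (3.77%) and 363 lower (2.88%). The share of higher genes among the calls was 68.7%, but 48.9% with quantile normalization (787 higher and 821 lower), 52.6% in the deposited matrix (814 and 734), 30.1% after a shift to the median (719 and 1674) and 92.1% with normexp background correction (128 and 11). From the dimmest to the brightest sixth of the tested probes 149, 275, 307, 229, 167 and 98 were called higher and 13, 36, 66, 121, 154 and 175 lower. With slide as a random block 2119 genes were called. No slide held arrays of both groups, so that fit cannot tell slide and time apart. The part of the local background in these calls was not tested.

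**Figure D1:**
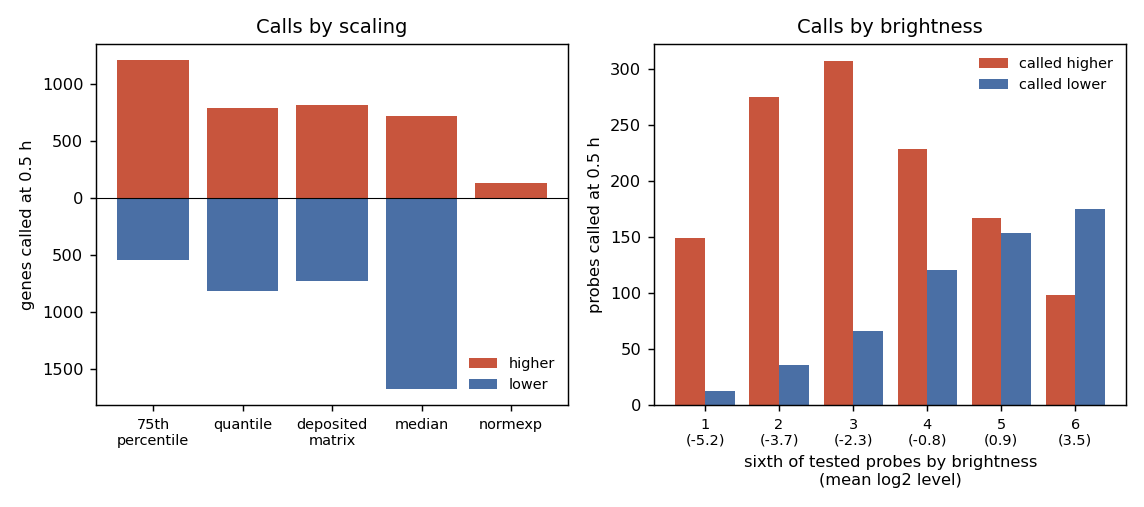
Left, genes called higher (upward bars) and lower (downward bars) at 0.5 h against 0 h, on a linear axis, with the 75th percentile scaling used in the text and 4 alternatives. Right, tested probes called higher and lower in each sixth of brightness, from the dimmest (1) to the brightest (6), with the mean log2 level of each sixth in brackets: higher calls fell from 307 in the third sixth to 98 in the sixth, while lower calls climbed from 13 to 175.

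With 4 scalings, the 75th percentile, quantile normalization, the median and the deposited matrix, the same 853 genes were called in the same direction, 481 higher and 372 lower. Of these, 120 higher and 10 lower genes were also called with normexp and without each of the 6 arrays in turn. With a listed symbol there were 66 such higher genes and 3 such lower ones. Of the 66, 38 belong to the marker and pathway lists used here. These include 12 of the immediate early transcription factors, 8 of the early feedback and growth control genes and 7 of the cytokines and chemokines. The 3 lower ones, chosen for mention after their values were seen, were Mapt, the microtubule-binding protein tau (fell by 0.72 on the log2 scale, limma adjusted P 0.00569), Atp2b3, a plasma membrane calcium pump (fell by 0.70, adjusted P 0.00192), and N4bp3 (fell by 0.68, adjusted P 0.00171).

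**Figure D2:**
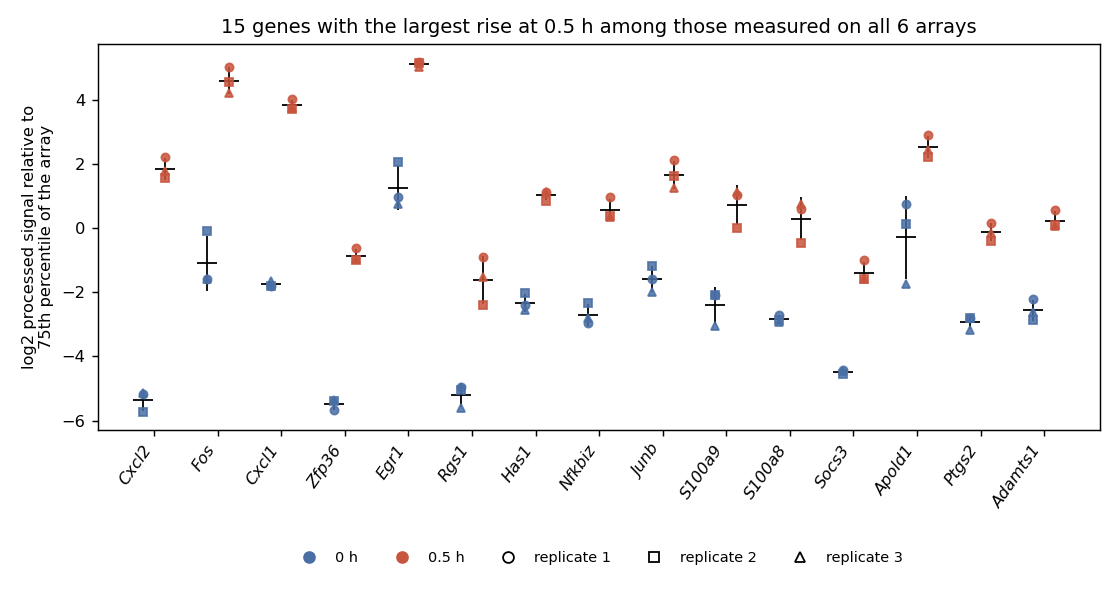
Log2 level of the 15 genes with the largest rise among listed genes called here and with quantile normalization and well above background on all 6 arrays. Each symbol is an array, with the mean (dash) and SD (bar) of the 3 arrays of 0 h and of 0.5 h. In every gene, as the rule for choosing them required, the lowest array of 0.5 h lies above the highest array of 0 h, from Cxcl2 (7.20 apart on average) to Adamts1 (2.79).

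Most tested genes of immediate early transcription factors rose. Of 31 immediate early transcription factors 29 were tested, and 19 were called higher, 65.5% against 3.77% of all genes with a listed symbol, or 12 with normexp. The median change of the 29 was 1.20 on the log2 scale, against -0.06 for all listed genes. Klf10 was called lower through 1 of its 2 probes. Fos, which pairs with Jun proteins to form AP-1, had levels of -1.60, -0.10 and -1.59 on replicates 1, 2 and 3 of 0 h and of 5.03, 4.56 and 4.21 at 0.5 h. The groups were far apart, although 0 h replicate 2 stood above the other arrays of 0 h. The rise was 51.7-fold (log2 change 5.69, SE 0.33, limma adjusted P 3.23e-07). Egr1, a zinc finger activator, showed the same high array at 0 h, with 0.97, 2.05 and 0.74, and 5.16, 5.14 and 5.005 at 0.5 h. It rose 14.4-fold (log2 change 3.85, SE 0.28, adjusted P 6.32e-06). Junb, another AP-1 partner, went from -1.59, -1.17 and -2.00 to 2.12, 1.61 and 1.25, with no overlap, a rise of 3.25 on the log2 scale (SE 0.27, adjusted P 1.64e-05).

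The rest of the AP-1 group moved with smaller steps. Jun itself rose by 1.93 (SE 0.16) and Atf3, a stress-induced member of the same leucine zipper family, by 1.93 (SE 0.12, adjusted P 9.84e-07), and both were already bright at 0 h, at 2.71 to 3.33 and 2.88 to 3.30. Fosb rose by 1.20 and Fosl2 by 1.30, but neither was called with normexp, and Fosl2 lost the call without 4 of the 6 arrays in turn. The orphan nuclear receptors Nr4a3, Nr4a1 and Nr4a2 rose by 2.70, 1.20 and 0.89. For Nr4a3 the arrays of 0 h were spread over -0.68, -2.26 and -2.90 while those of 0.5 h lay between 0.66 and 0.87. Csrnp1 (2.24), Ier2 (2.21), Klf4 (1.38), Myc (1.28), Egr2 (1.23), Cebpd (1.06), Klf2 (0.95) and Klf6 (0.72) were called as well. Cebpd, Klf2, Klf6 and Nr4a2 were not called with normexp, Cebpd, Klf2, Myc, Fosl2 and the brightest probe of Nr4a3 (but not all of its probes) not in a fit of the 6 arrays alone, and Klf2 also not without 0 h replicate 3 or 0.5 h replicate 1. Egr4 gained 2.35 with an SE of 0.70 and was not called (adjusted P 0.0638), with 0 h replicate 3 at -8.31 against -4.78 and -4.31 on the other arrays of 0 h, but was called in 5 of 18 alternatives. Egr3 (1.39, adjusted P 0.102) and Cebpb (0.58, adjusted P 0.257) were not called either.

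Cytokine and chemokine genes included the largest rise among the 15 genes named for size, that of Cxcl2. Of 32 genes in the list 23 were tested, and 9 were called higher (39.1% against 3.77% of all listed genes) and none lower, with a median change of 0.96. The 9 that were not tested, Tnf, Il1a, Il11, Csf2, Csf3, Ccl20, Areg, Ereg and Bdnf, did not pass the background filter in either group, which leaves their levels unmeasured here. Cxcl2, a chemokine that attracts neutrophils through the receptor Cxcr2, had levels of -5.18, -5.74 and -5.14 at 0 h and 2.20, 1.55 and 1.78 at 0.5 h. From among the dimmest measured probes it thus passed above the 75th percentile on every array, a rise of 147-fold (log2 change 7.20, SE 0.25, limma adjusted P 9.49e-10). With normexp, which adds an offset of 50 to every corrected signal, the log2 change was 5.59. Cxcl1, its close relative, lay at -1.82, -1.79 and -1.64 and then at 4.02, 3.71 and 3.73. This was 47.6-fold higher (log2 change 5.57, SE 0.20, adjusted P 9.49e-10). Cxcl3, of the same family, rose by 2.18 from a dim -5.79 to -5.23 and was not called with normexp.

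Il6, the cytokine that drives the acute phase response, was not well above background on any array of 0 h and was so on all 3 of 0.5 h, at -2.69, -2.92 and -2.59. Il6 thus passed the background filter through the arrays of 0.5 h alone. Its limma adjusted P (1.13e-08) used the dim 0 h signals as they were and does not test the bound given next. It was at least 13.6-fold higher at 0.5 h, where the bound sets the lowest signal well above background in place of the dim arrays. This bound holds for the scaling used here, and with normexp the log2 change was 2.08. Il1b, a proinflammatory cytokine made mainly by macrophages, had -1.40, -2.09 and -0.99 at 0 h, and at 0.5 h 1.31, 0.88 and 1.37. Its groups did not overlap and it rose 6.41-fold (SE 0.33 on the log2 scale, adjusted P 0.000417). The monocyte chemokine Ccl2 rose by 2.61 (SE 0.23), Ccl3 by 2.21 (SE 0.36) and Ccl7 by 1.67 (SE 0.36). Ccl7 lost the call with normexp, without 0 h replicate 1 and without 0.5 h replicate 3. Ccn1, a secreted matrix-associated protein, rose by 2.52 (SE 0.24), while its relative Ccn2 gained 1.19 with 0 h arrays at 3.28, 3.12 and 1.82 and was not called (adjusted P 0.0707). Ccn2 was called in 1 of 19 alternatives. Lif, a cytokine of the Il6 family, lay at -4.96, -3.25 and -3.35 at 0 h and higher on every array of 0.5 h. It was not called (adjusted P 0.0693), but was in 2 of 19 alternatives. Cxcl10, an interferon-induced chemokine, changed by 0.96 and was not called either (adjusted P 0.429), with 0 h replicate 3 at 3.04, above every array of 0.5 h.

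**Figure D3:**
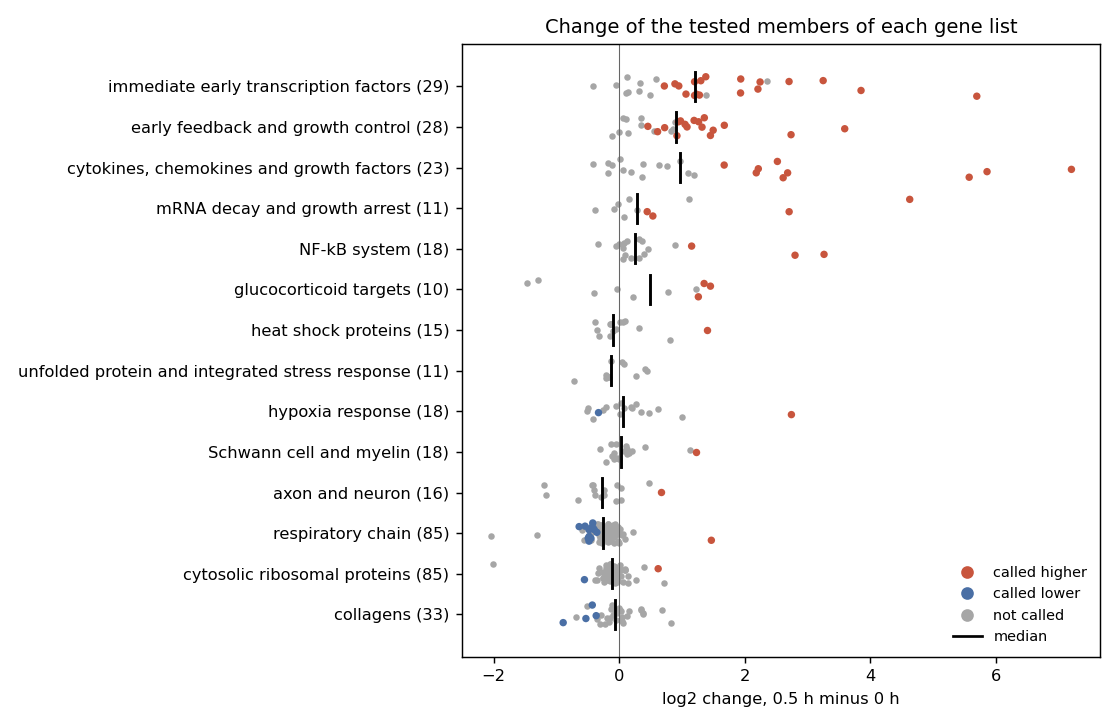
Log2 change at 0.5 h against 0 h of each tested member of 14 gene lists, 1 point per gene (the brightest tested probe), coloured where that probe was called, with the median of each list as a black bar and the number of tested genes in brackets. The top 3 lists have medians of 1.20, 0.90 and 0.96, whereas those for heat shock, the unfolded protein response, hypoxia, nerve cell types, the respiratory chain, ribosomal proteins and collagens lie between -0.27 and 0.05.

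Most tested genes of early feedback and growth control also rose. Of 30 early feedback and growth control genes 28 were tested, 17 were called higher (60.7% against 3.77%) and none lower, and their median change was 0.90. Rgs1, which shortens signalling by G protein-coupled receptors, went from -4.94, -5.06 and -5.62 to -0.90, -2.40 and -1.54. The arrays of 0.5 h varied widely on this gene but stayed well above those of 0 h, and the rise was 3.59 on the log2 scale (SE 0.36, adjusted P 9.16e-05). Dusp1, a phosphatase that inactivates MAP kinases, rose by 2.74 (SE 0.29), and its relatives Dusp5 and Dusp6 by 1.49 and 0.97. The kinase Sik1 rose by 1.67, Errfi1, an inhibitor of the EGF receptor, by 1.45, and the kinase Plk3 by 1.35. Gadd45g (1.32), Pim1 (1.26), Trib1 (1.19), Spry4 (1.08), Ier3 (1.05), Gadd45b (0.94), Pim3 (0.92), Rgs2 (0.72), Rhob (0.61) and Spry1 (0.45) followed. With normexp 8 members of the list were called instead of 17, and 12 in a fit of the 6 arrays alone, where Errfi1 was among those lost. Without at least 1 of the 6 arrays the calls of Pim1, Spry4, Rgs2 and Spry1 were lost. Gem, a small GTPase, gained 0.85 and was not called (adjusted P 0.0552), but was in 7 of 19 alternatives. Socs3, which blocks the signal of Il6-type receptors and belongs to none of the lists, lay at -4.43, -4.55 and -4.46 and then at -1.01, -1.58 and -1.59. The groups were clearly apart, with a rise of 8.50-fold (SE 0.31 on the log2 scale, adjusted P 8.92e-05). With normexp the log2 changes of Rgs1 and Socs3 were 2.35 and 2.19.

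Zfp36, also known as tristetraprolin, binds AU-rich elements of cytokine mRNAs and speeds their decay. Its levels were -5.68, -5.40 and -5.37 at 0 h and -0.61, -0.99 and -0.98 at 0.5 h. The increase was 24.7-fold (log2 change 4.63, SE 0.26, limma adjusted P 3.23e-07), and the log2 change was 3.16 with normexp. Btg2, which promotes deadenylation and slows growth, rose by 2.70 (SE 0.25). In all, 5 of the 11 mRNA decay and growth arrest genes were called higher (45.5% against 3.77% of listed genes) and none lower, with a median of 0.28. Mcl1 was called through 1 of its 2 probes, and its brightest probe changed by 0.16 (adjusted P 0.553). The call of Zfp36l1 (0.44) was lost when each of the 6 arrays was left out in turn and that of Ppp1r15a (0.53) for 5 of them, both were lost with normexp, and Tob1 (1.11, adjusted P 0.0662) was not called, but was in 5 of 19 alternatives. With normexp 3 members of the list were called.

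In the NF-κB system a few inducible genes rose and none of the tested subunits of the transcription factor itself was called. Of 22 genes 18 were tested and 3 were called higher (16.7% against 3.77% of listed genes), Nfkbiz, Ptgs2 and Nfkbia, with a list median of 0.25. Nfkbiz, a nuclear cofactor needed for a second set of inflammatory genes, had -2.97, -2.33 and -2.82 at 0 h and 0.95, 0.36 and 0.35 at 0.5 h. It rose 9.58-fold (SE 0.24 on the log2 scale, adjusted P 7.48e-06), and both of its probes were called. Ptgs2, the inducible cyclooxygenase that makes prostaglandins, rose by 2.80 (SE 0.27, adjusted P 6.11e-05). Nfkbia, the inhibitor that holds NF-κB in the cytoplasm, rose by 1.15 and lost the call with normexp and with a fit of the 6 arrays alone. Rel (0.31, adjusted P 0.386), the adhesion molecule genes Icam1 (0.36, adjusted P 0.247) and Sele (0.88, adjusted P 0.222), and Irf1 (0.45, adjusted P 0.341) were not called. Birc2 and Birc3, inhibitors of apoptosis downstream of TNF receptors, changed by 0.18 (SE 0.09) and 0.10 (SE 0.25) and were not called, and Birc3 turned negative after a shift to the median.

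Promoter sequences of some leading risers are shown with the letters that known transcription factors bind. What regulated these genes here was not tested. RefSeq windows (GRCr8) around the transcription start were found for 13 of the 15 genes that rose most and for 11 of the 15 that fell most. An NF-κB site (both strands searched) was present in 4 of the 13, Cxcl1, Cxcl2, Nfkbiz and Socs3, and in 4.19% of all 33365 windows. A CArG box, bound by serum response factor, was in Egr1 and Zfp36 and in 1.63% of all windows, and TGACGTCA, bound by CREB, was in Has1 and in 1.83%. The AP-1 letters TGANTCA were in none of the 13 and in 7.34% of all. None of the 11 windows of the genes that fell held any of these motifs. Below are the 160 bases before the start of 4 risers, 5′ to 3′ on the gene's strand, with matches in capitals (an NF-κB site in the first 3, where the 2 matches of Cxcl1 and of Cxcl2 overlap by all but 1 base, and a CArG box in Zfp36). They lie on the minus strand at chr14:17479322-17479481 for Cxcl1, at chr14:17467256-17467415 for Cxcl2 and at chr1:92799109-92799268 for Zfp36, and on the plus strand at chr11:58251561-58251720 for Nfkbiz.
Cxcl1: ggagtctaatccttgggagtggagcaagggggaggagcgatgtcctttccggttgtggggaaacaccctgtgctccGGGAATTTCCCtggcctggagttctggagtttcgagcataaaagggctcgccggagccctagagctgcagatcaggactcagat
Cxcl2: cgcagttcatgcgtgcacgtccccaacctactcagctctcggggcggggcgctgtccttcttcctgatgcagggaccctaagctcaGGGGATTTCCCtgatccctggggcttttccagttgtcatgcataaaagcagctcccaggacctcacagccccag
Nfkbiz: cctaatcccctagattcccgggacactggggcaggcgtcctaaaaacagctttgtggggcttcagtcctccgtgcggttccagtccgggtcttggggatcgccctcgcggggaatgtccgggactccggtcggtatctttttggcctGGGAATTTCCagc
Zfp36: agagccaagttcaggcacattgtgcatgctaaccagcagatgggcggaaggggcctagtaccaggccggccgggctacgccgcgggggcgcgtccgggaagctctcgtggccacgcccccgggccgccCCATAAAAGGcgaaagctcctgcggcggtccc
The match starts 84 bases before the start of Cxcl1 and 74 before that of Cxcl2, and both genes lie on chromosome 14. It lies 13 bases before the start of Nfkbiz, and the CArG letters 32 bases before that of Zfp36. These are matches of letters and not shown binding sites.

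Several of the largest rises were of genes in none of the lists. Has1, a hyaluronan synthase, went from -2.40, -2.02 and -2.56 to 1.12, 0.85 and 1.13. All 3 arrays of 0.5 h lay close together and far above those of 0 h, and the rise was 10.3-fold (SE 0.32 on the log2 scale, adjusted P 5.45e-05). Adamts1, a secreted protease that cuts proteoglycans, rose by 2.79 (SE 0.30, adjusted P 0.000148). Apold1, an early gene of endothelial cells, rose by 2.82 (SE 0.43, adjusted P 0.00231), but its arrays of 0 h ranged over 0.74, 0.12 and -1.75 and the call was lost in a fit of the 6 arrays alone. Edn1 (endothelin), Ch25h (cholesterol 25-hydroxylase), Rasd1 and Tnfsf9, chosen after their values were seen from the 66 genes named above by count, rose by 1.24, 1.71, 2.25 and 1.23.

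Stress pathways were touched in few members. Hspa1a, the inducible heat shock protein 70, lay at 1.21, 1.13 and 1.12 at 0 h and 2.84, 2.51 and 2.29 at 0.5 h. It rose by 1.39 (SE 0.15, adjusted P 0.000176), with tight arrays at 0 h. Of 15 tested heat shock proteins 3 were called higher (20% against 3.77% of listed genes), the other 2 through a probe other than the brightest, and the median was -0.10. The count was 1 with normexp, after a shift to the median, in the 6 arrays alone and without 0.5 h replicate 1 or 3. Hsph1 gained 0.80 and was not called (adjusted P 0.0704), but was in 3 of 19 alternatives. The metallothioneins Mt1 and Mt2A rose by 1.26 and 1.35, and with Errfi1 they were the 3 of 10 glucocorticoid targets called (30% against 3.77%). The list median was 0.50, and it ranged from 0.19 to 0.72 when single arrays were left out. Per1, a glucocorticoid target and clock gene, gained 1.22 with 0 h replicate 3 at -3.65, and was not called (adjusted P 0.14). None of 11 tested genes of the unfolded protein and integrated stress response was called. The median was -0.13, but 0.04 without 0 h replicate 1. In that list 5 of the 11 changes were above 0. Of 18 tested hypoxia genes 1 was called higher (5.56% against 3.77%) and 1 lower (5.56% against 2.88%), the glucose transporter gene Slc2a1, and the median was 0.05. Slc2a1 fell by 0.33 and lost the call in 11 of 19 alternatives, among them normexp, quantile normalization and leaving out each of the 6 arrays.

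**Figure D4:**
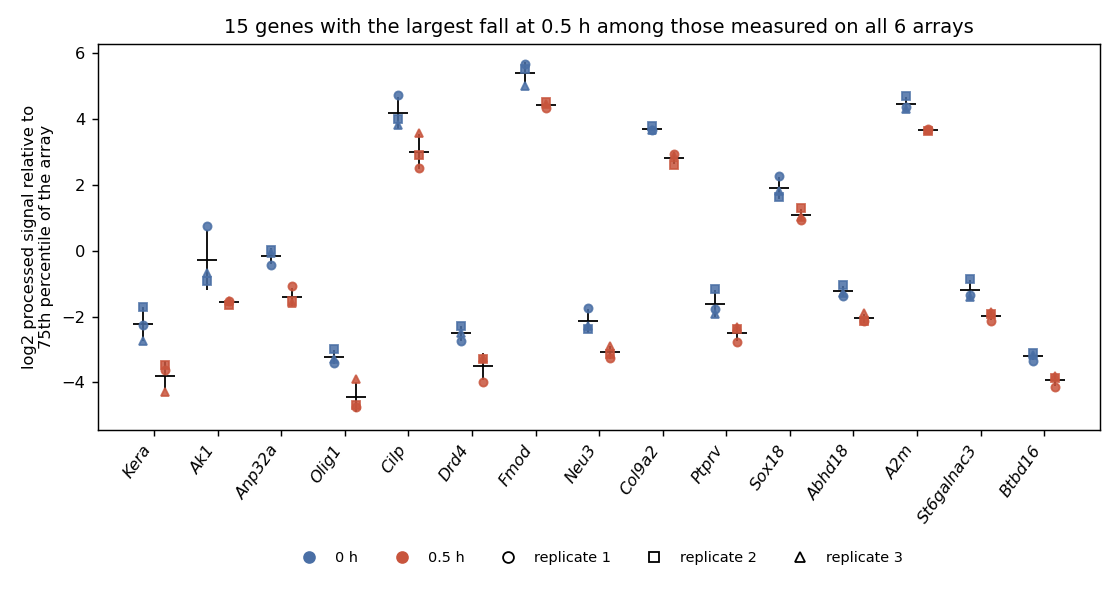
Log2 level of the 15 genes with the largest fall among listed genes that met the naming rule, drawn as for the genes that rose. The rule asked for a call here and with quantile normalization, signals well above background on all 6 arrays and no overlap of the groups. Changes range from -1.56 for Kera to -0.73 for Btbd16, and the groups do not overlap in any of them although the distance between them is small beside that of the genes that rose.

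Among listed genes that were called and were well above background on all 6 arrays, the largest falls were smaller than the largest rises. Uncalled skeletal muscle genes such as Acta1 (-2.22) fell by more than the genes named here. Kera, keratocan, a small leucine-rich proteoglycan, had -2.25, -1.70 and -2.74 at 0 h and -3.64, -3.46 and -4.28 at 0.5 h. The groups did not overlap, as the rule for naming these genes required, and Kera fell by 1.56 on the log2 scale (SE 0.32, limma adjusted P 0.0123). Fmod, fibromodulin, of the same proteoglycan family, was bright at 5.67, 5.53 and 5.01 and dropped to 4.32, 4.51 and 4.46. It fell by 0.97 (SE 0.19, adjusted P 0.00989). Cilp, a matrix protein of cartilage, fell by 1.18 with 0.5 h replicate 3 at 3.57, close to the lowest array of 0 h at 3.81, and Col9a2, a chain of a cartilage collagen, fell by 0.89. Cilp was called through 1 of its 2 probes. Olig1, a transcription factor of the oligodendrocyte lineage, fell by 1.22 (SE 0.21, adjusted P 0.00557), and Sox18, a regulator of endothelial cells, by 0.83 with both of its probes called.

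Ak1, adenylate kinase, fell by 1.28, with levels of 0.75, -0.91 and -0.68 at 0 h against -1.51, -1.63 and -1.53 at 0.5 h, and its highest array was the 0 h replicate 1 that also had high skeletal muscle markers. Anp32a fell by 1.24, the dopamine receptor gene Drd4 by 1.01, the sialidase gene Neu3 by 0.95, the phosphatase gene Ptprv by 0.87, Abhd18 by 0.82, the protease inhibitor gene A2m by 0.79, the sialyltransferase gene St6galnac3 by 0.77 and Btbd16 by 0.73. Abhd18 was called through 1 of its 3 probes and Btbd16 through 1 of 2. None of the 15 was called with normexp, 9 lost the call without at least 1 of the 6 arrays and 9 in a fit of the 6 arrays alone. Of the 15 genes that rose, Apold1 alone lost its call, in a fit of the 6 arrays alone, among 19 alternatives.

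Of 18 tested Schwann cell and myelin genes Egr2 alone was called (5.56% higher against 3.77% of listed genes), a regulator of myelin genes that is also an immediate early gene, and the median was 0.03. Mag, a myelin adhesion protein, had overlapping groups (0.11, SE 0.18), and its sign turned after a shift to the median and without 0 h replicate 3. S100b, a calcium-binding protein of Schwann cells, lay at 0.38, 0.44 and 0.94 and then at 1.69, 1.76 and 1.71, with no overlap. Its change of 1.13 was not called (adjusted P 0.0617), but was in 4 of 19 alternatives. Of 16 tested axon and neuron genes Calca, the precursor of the neuropeptide CGRP, was called higher (0.66, adjusted P 0.035), a call lost when each of the 6 arrays was left out in turn. The median was -0.27, or -0.36 to -0.13 without single arrays, and no gene was called lower. With quantile normalization and in the deposited matrix 1 was called lower, as without 0 h replicate 1, and 3 after a shift to the median. Stmn2, a microtubule regulator of axons, changed by -0.44 and was not called (adjusted P 0.143).

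Among broad gene families, the respiratory chain had 13 of 85 tested genes called lower (15.3% against 2.88% of listed genes), 2 called higher and a median of -0.26. Atp5mc1, a subunit of the ATP synthase, fell by 0.64, with 5.27 on 0 h replicate 1 against 4.57 and 4.52 on the other arrays of 0 h. The summed level of skeletal muscle markers was also highest on that array. Without 0 h replicate 1 the count was 5 and the median -0.15, with normexp 0 and -0.27, and in a fit of the 6 arrays alone the count was 1. Leaving out other arrays gave 6 and 11 without 0 h replicates 2 and 3 and 1, 5 and 2 without 0.5 h replicates 1, 2 and 3, and a shift to the median gave 28. Cox7c, another subunit, rose by 1.47 (adjusted P 0.0176) against the direction of the family, and lost the call without 3 of the arrays in turn. Collagens had 5 of 33 genes called lower (15.2%) and none higher. Col4a1 of the basement membrane fell by 0.43, Col4a5 by 0.53 and Col18a1 by 0.37, all with non-overlapping groups, and none of the 5 was called with normexp. Without 0 h replicate 2 or without 0.5 h replicate 1 no collagen was called. Cytosolic ribosomal proteins had 1 of 85 called higher and 4 lower, with a median of -0.12. With quantile normalization the median was -0.01 and the counts were 3 and 1, and after a shift to the median they were 0 and 16. With normexp no ribosomal protein gene was called lower, and 1 was in the 6 arrays alone. Without 0 h replicate 2 or 3, or without any array of 0.5 h, 1 was called lower.

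**Figure D5:**
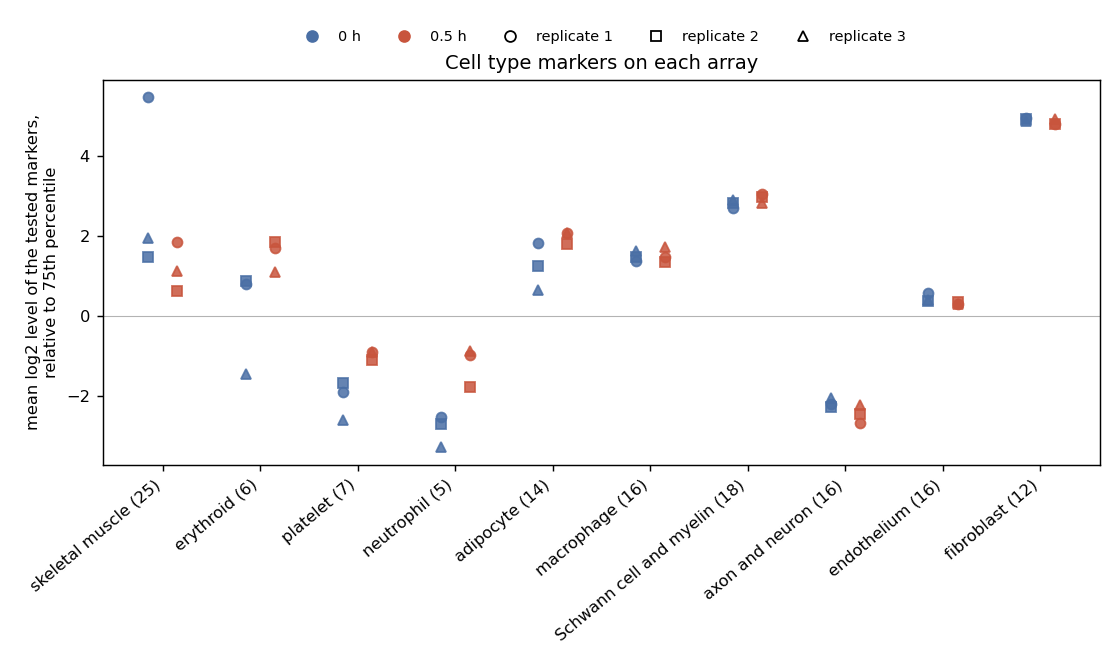
Mean log2 level of the tested markers of 10 cell types on each of the 6 arrays, 1 symbol per array, with the number of tested markers in brackets; levels are to be compared between arrays and not between lists. Skeletal muscle markers stood at 5.47 on 0 h replicate 1 against 0.63 to 1.96 on the other arrays, and erythroid, platelet and neutrophil markers were higher on all arrays of 0.5 h than on any of 0 h.

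Among markers of blood cells 2 of 5 tested neutrophil genes, 1 of 7 platelet genes and none of 6 erythroid genes were called higher (3.77% of listed genes were). In bulk RNA, more cells of a type and more RNA per cell cannot be told apart. S100a9 and S100a8, which form the calcium-binding protein calprotectin of neutrophils and monocytes, rose by 3.13 (SE 0.41, adjusted P 0.000794) and 3.12 (SE 0.36, adjusted P 0.000267). S100a8 lay at -2.70, -2.87 and -2.92 at 0 h against 0.60, -0.47 and 0.75 at 0.5 h, and all 3 of its probes were called. Of 14 neutrophil markers 5 were tested. Among the others Csf3r (1.01, adjusted P 0.352), Mpo (1.06, adjusted P 0.214) and Lcn2 (-0.17, adjusted P 0.588) were not called, and the granule genes Mmp8, Mmp9, Ngp, Camp and Ltf and the receptor genes Cxcr1, Cxcr2 and Fpr1 were not measured well above background by every array of a group.

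Erythroid markers were all above 0 in their change, 6 of 6 tested with a median of 1.54, and none was called. Hbb, the beta chain of haemoglobin, had 1.75, 1.39 and -1.10 at 0 h and 2.83, 2.62 and 2.08 at 0.5 h. The low array was 0 h replicate 3, and without it the median change of the list was 0.73. Platelet markers changed upward in 7 of 7 tested genes with a median of 0.87, or 0.60 without that array. Ppbp, a platelet chemokine, was called (1.61, adjusted P 0.0333) but lost the call when each of the 6 arrays was left out in turn. It was not well above background on all 6 arrays, and its change ranged from 0.63 to 1.82 over the alternatives. Clec1b, a platelet receptor, gained 2.15 and was not called (adjusted P 0.0717), but was in 2 of 19 alternatives. Macrophage markers had a median of -0.03 with 1 of 16 called (Csf1r, a growth factor receptor, through 1 of its 2 probes). The part of blood in the rises of S100a8, S100a9 and Il1b was not tested.

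Skeletal muscle markers had no gene called, a median change of -1.83 and no member of 25 above 0. Acta1, the actin of skeletal muscle, lay at 7.57 on 0 h replicate 1 and between 1.63 and 3.49 on the other 5 arrays. Without that array the median change of the list was -0.55. The marker levels at 0 h thus varied by more than the difference between the groups. Adipocyte markers had a median change of 0.71 with none called, 0.41 without 0 h replicate 3 and 1.03 without 0 h replicate 1, where 3 were called higher.

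Chemoreceptor genes, which encode receptors of odours, pheromones and bitter taste and are not known for a part in nerve injury, had 26 of 213 tested members called higher (12.2% against 3.77%) and none lower, with a median change of 0.84. Of the 1166 members on the array 213 were tested. Their probes are dim, with 0 h replicates between 20.3% and 23.6% well above background and 0.5 h replicates at 14.8%, 14.4% and 33.7%. The high array was 0.5 h replicate 3. Without it 4 members were called and the median change was 0.46. Leaving out 0 h replicates 1, 2 and 3 gave 8, 8 and 7 members, and leaving out 0.5 h replicates 1 and 2 gave 19 and 17. With normexp 2 members were called, Or8w1b and Or13a27e, and in a fit of the 6 arrays alone 10. Or8s8 had -4.28, -4.35 and -4.30 at 0 h against -2.93, -2.91 and -1.55 at 0.5 h and was called (1.85, adjusted P 0.025) but not with normexp. The local background was also higher on the arrays of 0.5 h, and its part was not tested.

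From 0.5 h to 1 h none of the 15 genes that rose most and none of the 15 that fell most was called in the same fit. All arrays of 1 h and later were scanned on other days than those of 0.5 h. Day and time thus cannot be told apart in the contrast of 1 h and 0.5 h or in the later levels given here. The mean level of Fos went from -1.10 ± 0.86 (SD, 3 arrays a time-point) at 0 h to 4.60 ± 0.41 at 0.5 h, then 4.34 ± 0.33 after 1 h, 1.74 ± 0.19 after 3 h and 1.46 ± 0.05 after 9 h. Egr1, Zfp36, Rgs1, Apold1 and Ptgs2 likewise had lower means at 9 h than at 0.5 h. Cxcl2, in contrast, stood at 1.84 ± 0.33 at 0.5 h and 2.57 ± 0.33 at 9 h. S100a8 went on from 0.29 at 0.5 h to 2.28 at 3 h and 3.29 at 9 h. Fmod (3.60), Cilp (1.77) and Kera (-4.80) had their lowest mean of the 6 time-points at 9 h, whereas A2m was back at 5.02, above its 4.46 at 0 h.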

How the data were processed

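The series holds 18 one-colour Agilent arrays of rat proximal sciatic nerve RNA. The authors deposited each array's scanner output from Feature Extraction (version 10.5.1.1 in the files), whose processed signal is a linear intensity with background subtracted and spatial trends removed, and a matrix of log2 values with the same distribution on every array (median 7.75), which ranks probes as the scanner output does. Control and outlier spots were left out, log2 processed signals were taken relative to each array's 75th percentile, and spots of a probe were averaged. Of 41012 probes 21267 matched a listed symbol in a RefSeq table. The groups came from the sample titles. limma 3.58.1 (R 4.3.3) was fitted to all 18 arrays with a mean for each of 6 time-points. The study used a random variance F-test, which also borrows spread across genes. For a gene with several probes the brightest tested one was reported, and a named gene's lost call is that of this probe. Lists are described by counts and medians with no set test. The genes named are the 15 with the largest rise and fall that were called in the same direction with quantile normalization, measured above background by all 6 arrays, with groups that do not overlap, members of the lists, and bounds. The members and lists were chosen with earlier results of these data known. The fit was tested on simulated data. Alternatives were normexp (offset 50), quantile normalization, a median shift, the deposited matrix, other filters, blocks, weights, priors and thresholds, and leaving out each of the 6 arrays. Scaling to spike-in probes was not run, since none was well above background on every array. A few genes are not reported here.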

Additional observations from a re-analysis of the deposited data

How the results depend on the processing

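With the alternatives, the counts of called genes moved most. Normexp background correction called 139 genes (128 higher, 11 lower, with 101 and 0 by at least 2-fold). Quantile normalization called 787 higher (335 and 87 by at least 2-fold), a shift to the median 719 higher and 1674 lower (89 by at least 2-fold lower) and the deposited matrix 316 and 76 by at least 2-fold higher and lower. With no filter on dim probes 1016 genes were at least 2-fold higher and 506 was the number of calls shared by the scalings, and with only probes above background on all 6 arrays 11 were at least 2-fold lower. A fit of only the 6 arrays of 0 h and 0.5 h called 1123 genes, 120 of them lower. Array weights called 3757 (2130 higher, 1646 lower, 58 by at least 2-fold lower), with 2573 shared calls. Shared calls were 1425 with scan day as a block and 442 with slide as a random block (consensus correlation -0.037). Of the 30 genes named for size, 1 was called between 1 h and 0.5 h with the filter on all 6 arrays, 1 with slide and 3 with array weights, against 0 in the fit reported. The cause of these shifts was not tested.

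Leaving out each array gave 590 (without 0.5 h replicate 3) to 1204 called genes (without 0 h replicate 1), 438 to 743 higher, 112 to 504 lower, 297 to 475 and 8 to 27 by at least 2-fold higher and lower, and 234 to 535 calls shared by the scalings. Calls were 728 without 0 h replicate 2, 1063 without 0 h replicate 3, 746 without 0.5 h replicate 1 and 913 without 0.5 h replicate 2. Birc3 changed to -0.060 and Mag to -0.047 after a shift to the median, and Mag ranged from -0.012 to 0.28 when single arrays were left out. With the replicate number as a block 1990 genes were called (1388 higher, 605 lower), and the numbers did not pair the arrays, whose same-numbered deviations correlated at 0.186, 0.147 and -0.055. Scaling to the spike-in probes was not run. The 3 arrays a group limit the precision.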

Other observations

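Counts in other gene groups stand beside 3.77% called higher and 2.88% called lower of all listed genes. Of 100 tested ion channel genes 4 (4%) were called higher and none lower, with a median of -0.02, and 0 were called higher with normexp and 1 with quantile normalization. The potassium channel genes Kcna6 and Kcnh2 rose by 1.73 and 1.39, where Kcna6 lost the call with normexp and Kcnh2 with normexp, quantile normalization and the deposited matrix. Cacna1d, a calcium channel gene, rose by 0.83 and lost the call in 10 of 19 alternatives, among them leaving out each of the 6 arrays.

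Of 16 endothelial markers Sox18 was called lower, Tek and Sox17 were called higher through 1 of 2 probes each (12.5% of the list), and the median was -0.08. Neither of the higher calls held with normexp, quantile normalization or a shift to the median. Zinc finger proteins of the Zfp series had 5 of 181 called higher (2.76%) and 5 lower (2.76%), but 3 and 11 with quantile normalization, 2 and 18 after a shift to the median and 1 and 0 with normexp. None was called lower in the 6 arrays alone or without 0 h replicate 3, 0.5 h replicate 2 or 0.5 h replicate 3. The count was 6 without 0 h replicate 1 and 1 without 0 h replicate 2 or 0.5 h replicate 1. Among histones 1 of 31 was called lower (3.23%), H2bc12, which fell by 0.51 and lost the call with normexp and without 5 of the 6 arrays in turn. Proteasome subunits had 4 of 37 called lower (10.8%) and 1 higher, with 6 of 37 changes above 0. None was called lower with normexp, in the 6 arrays alone, or without 0 h replicate 2, 0.5 h replicate 1 or 0.5 h replicate 3, and Psmc4, which fell by 0.39, lost its call in 6 alternatives. In the clock list 1 of 14 tested genes was called higher (7.14%), in the cholesterol synthesis list 1 of 20 (5%), and in the list of BMP, TGF-β and Notch targets 2 of 12 (16.7%), with 0 in each of these lists with normexp.

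Besides Il6, the synaptic adhesion gene Lrrtm2 was not well above background on any array of 0 h and was so on all 3 of 0.5 h. Lrrtm2 was not called with normexp. Or9i16, an odorant receptor gene, had the same background pattern with a bound of at least 3.58-fold in the scaling used here. Its lowest log2 change over the alternatives was 0.68. The limma adjusted P (0.0373) used the dim 0 h signals and does not test the bound. Or9i16 lost the call in 10 of 18 alternatives, among them normexp, quantile normalization and leaving out each of the 6 arrays. Agbl2 was called lower (limma adjusted P 0.0104), but no array of 0.5 h measured it well above background. The P-value used those dim signals, and the bound allows no fold. Agbl2 was not called with normexp, quantile normalization or the deposited matrix.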
